A study of Danio rerio with 6 samples.

Results

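Genes of the sensory hair cells and otoliths were followed in whole zebrafish larvae with and without functional panx1a. Members were taken by gene symbol from a list that was drawn up with earlier results of these data known. The list holds 10 genes, of which 7 are hair cell genes (otofa, otofb, tmc1, tmc2a, myo7aa, cdh23 and s100t) and 3 are otolith and tectorial genes (otop1, oc90 and tecta). Of these, 8 have a row among the 15336 genes of the count tables, 6 of the hair cell set and 2 of the otolith and tectorial set. All 8 passed the filter on low counts, which kept 12797 genes. otofb and tecta were not analysed here.

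Hair cells of the inner ear and of the lateral line, the row of skin organs with which fish sense water flow, carry a bundle of actin-filled stereocilia joined by tip links. Deflection of the bundle pulls on these links and opens the mechanotransduction channel, and the resulting calcium entry drives release of glutamate at ribbon synapses. In the ear the bundles are loaded by otoliths, crystals of calcium carbonate on a protein matrix, which report gravity and sound. Panx1a is the subunit of an ATP-permeable membrane channel.

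Total RNA of whole, untreated larvae was sequenced at 6 dpf (days post fertilization) in 6 libraries, 3 from wild-type TL larvae (TL control) and 3 from TALEN-edited panx1a-/- larvae of the same TL strain. The mutant line descends from a founder with a small deletion that shifts the reading frame within a coding exon of panx1a. The knockout is present in every cell of the larva and is therefore not specific to the ear or lateral line. Neither the number of larvae in a library nor whether libraries came from separate clutches is stated in the labels, so p-values measure only the spread between these samples, which may be technical.

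Reads counted on genes ranged from 13054759 to 21472044 per library, and a count of 3 corresponded to 0.155 to 0.209 CPM (counts per 1e6 reads on genes, scaled by TMM). The targeted gene, panx1a, had 110, 114 and 147 reads in TL replicates 1, 2 and 3 and 22, 17 and 13 reads in the panx1a-/- replicates. Its fitted log2 fold change was -2.72 ± 0.26 (SE; adjusted p = 0.00793, edgeR quasi-likelihood test), in the direction of the labels in all 6 libraries. Between 30.2% and 42.9% of uniquely aligned reads lay outside any gene feature in TL controls, and between 48.4% and 59.4% in panx1a-/- larvae. The libraries also differed in marker genes of other tissues. Summed levels ranged from 18567 to 44012 CPM in TL controls and from 2417 to 7788 CPM in panx1a-/- larvae for 10 epidermis markers (7 called lower), from 49280 to 150650 against 20804 to 35372 CPM for 10 fast muscle markers (5 called lower), and from 2232 to 14184 against 867 to 1028 CPM for 10 pancreatic acinar markers (9 called lower). They ranged from 1555 to 2119 against 2649 to 5974 CPM for 12 photoreceptor markers (10 called higher) and from 2131 to 4448 against 4910 to 7381 CPM for 10 neuron markers (5 called higher). All of these markers were measured above the filter. Their part in the results below was not tested. In whole larvae, fewer cells of a type and less RNA per cell cannot be told apart.

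Of the 8 members measured, 3 were higher in panx1a-/- larvae (tmc1, oc90 and otofa), 2 were lower (s100t and otop1), and 3 did not pass the test (tmc2a, cdh23 and myo7aa). Over all 12797 genes tested, 9.88% were called higher and 11.8% were called lower at an adjusted p below 0.05. In the 5 called members, every panx1a-/- library lay on the same side of every TL library. Such separation was seen for 23.4% of all genes in the higher direction and for 24.1% in the lower direction. Both the hair cell set and the otolith set contained genes that rose and genes that fell. CPM values below are TMM-normalized and refer to the same gene across libraries. Levels were not compared between genes, because transcript lengths were not used here.

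**Figure D1:**
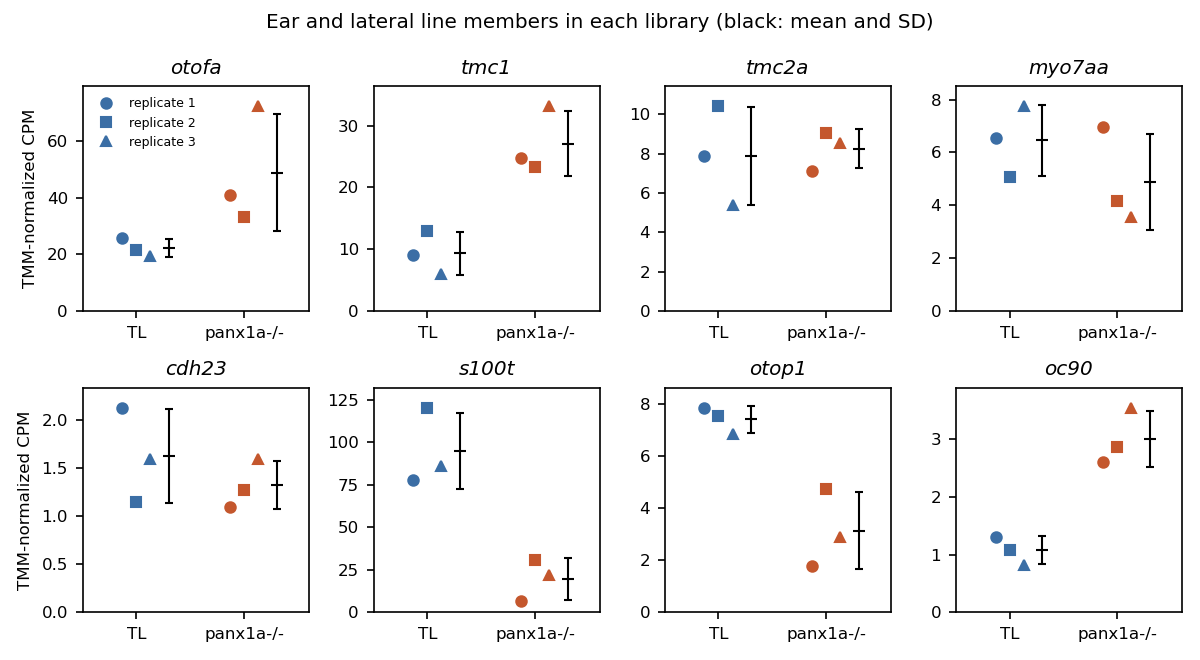
TMM-normalized CPM (linear axis from 0) of the 8 measured members in each of the 3 TL control libraries (blue) and 3 panx1a-/- libraries (orange), with the mean and SD in black and the replicate number given by the symbol. The genotypes do not overlap for otofa, tmc1, s100t, otop1 and oc90, and overlap for tmc2a, myo7aa and cdh23.

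The pore of the transduction channel is formed by Tmc proteins, and the members include tmc1 and tmc2a. tmc1 was present at 9.12, 12.9 and 5.99 CPM in TL replicates 1, 2 and 3 and at 24.8, 23.3 and 33.1 CPM in panx1a-/- replicates 1, 2 and 3. The lowest panx1a-/- library was thus well above the highest TL library. Mean levels were 9.33 ± 3.45 CPM in TL controls and 27.1 ± 5.28 CPM in panx1a-/- larvae (SD over 3 libraries), which were fitted as an increase (log2 fold change 1.54 ± 0.29 SE, adjusted p = 0.0279, edgeR quasi-likelihood test).

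tmc2a, the paralog of the same channel, behaved differently. It was present at 7.87, 10.4 and 5.37 CPM in the TL libraries and at 7.13, 9.03 and 8.55 CPM in the panx1a-/- libraries, and the genotypes overlapped. Its log2 fold change was 0.07 ± 0.27 (SE; adjusted p = 0.861, edgeR quasi-likelihood test), and its sign turned, to -0.040, with upper-quartile scaling. tmc2b, the third channel gene, is not on the member list. Its 198, 330 and 199 reads in TL controls stood against 415, 607 and 415 reads in panx1a-/- larvae, a log2 fold change of 1.06 ± 0.27 (SE; adjusted p = 0.038, edgeR quasi-likelihood test).

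Because a ratio of 2 genes within 1 library does not depend on the scaling between libraries, the channel genes were also set against each other. These ratios were chosen after the values were seen and are given without a test. The ratio of tmc1 to tmc2a reads was 1.16, 1.24 and 1.12 in TL replicates 1, 2 and 3 and 3.48, 2.58 and 3.87 in the panx1a-/- replicates. The TL libraries were close to each other, and all panx1a-/- libraries lay above them. The ratio of tmc2b to tmc2a reads ranged from 1.38 to 1.92 in TL controls and from 3.37 to 3.57 in panx1a-/- larvae. Relative to tmc2a, both other channel genes thus had more reads in each panx1a-/- library than in any TL library. For tmc1 this is not a further result, because tmc1 reads were separated by more, as a ratio, than tmc2a reads varied.

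The tip link and the motors of the bundle are represented by cdh23 and myo7aa. cdh23, a cadherin that forms the upper part of the tip link, had few reads. There were 39, 19 and 31 reads in TL controls and 19, 24 and 23 reads in panx1a-/- larvae, all above the count of 3. Its mean levels were 1.63 ± 0.49 and 1.33 ± 0.25 CPM (SD over 3 libraries). The log2 fold change was -0.30 ± 0.34 (SE; adjusted p = 0.499, edgeR quasi-likelihood test), and the genotypes overlapped.

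myo7aa encodes myosin VIIa, a motor that is needed for bundle integrity and transduction. Its levels were 6.56, 5.08 and 7.74 CPM in TL replicates 1, 2 and 3 and 6.96, 4.14 and 3.55 CPM in panx1a-/- replicates 1, 2 and 3. The mutant replicate 1 lay within the TL range, while replicates 2 and 3 lay below it. The log2 fold change of -0.40 ± 0.30 (SE) was within the spread between replicates (adjusted p = 0.327, edgeR quasi-likelihood test).

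At the synapse, otofa encodes otoferlin, the calcium sensor for vesicle fusion in hair cells. It had 473, 356 and 378 reads in TL replicates 1, 2 and 3 and 708, 627 and 1039 reads in panx1a-/- replicates 1, 2 and 3, or 19.5 to 25.8 CPM against 41.0, 33.3 and 72.2 CPM. All mutant libraries were above the controls, and the mutant libraries were spread more widely, with replicate 3 standing highest. Means were 22.3 ± 3.23 and 48.9 ± 20.6 CPM (SD over 3 libraries), a fitted 2.19-fold increase (log2 fold change 1.13 ± 0.29 SE, adjusted p = 0.0371, edgeR quasi-likelihood test). Without panx1a-/- replicate 3, the log2 fold change was 0.74. In the panx1a-/- libraries, the order of otofa levels was that of the share of reads matched to no gene feature, which was 51.6%, 48.4% and 59.4%. In TL controls the orders differed, with otofa lowest in replicate 3 and the share lowest in replicate 2. This relation was not tested. With this share as a covariate, the otofa log2 fold change was 0.01 (adjusted p = 0.999, edgeR quasi-likelihood test). The share did not overlap between the genotypes. Here and in the covariate fits below, the share and genotype therefore cannot be told apart. The targeted gene panx1a also lost its call in this fit (adjusted p = 0.574, edgeR quasi-likelihood test).

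Presynaptic genes outside the member list did not all move with otofa. slc17a8, the vesicular glutamate transporter that loads hair cell vesicles, had 30, 25 and 32 reads in TL controls and 6, 15 and 8 reads in panx1a-/- larvae, and fell (log2 fold change -1.48 ± 0.37 SE, adjusted p = 0.0352, edgeR quasi-likelihood test), a call that was lost with library size only (adjusted p = 0.0619). cabp2a, a calcium-binding protein that modulates calcium channels and is also known from the retina, rose from 19.2 ± 5.05 to 66.8 ± 20.7 CPM (SD over 3 libraries; adjusted p = 0.0262, edgeR quasi-likelihood test). Of the 12 photoreceptor markers, 10 were called higher in the same libraries.

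s100t, a small EF-hand calcium-binding protein used as a hair cell marker in zebrafish larvae, had the largest change among the 8 measured members. Its counts were 1429, 1987 and 1670 in TL replicates 1, 2 and 3 and 113, 579 and 316 in panx1a-/- replicates 1, 2 and 3. Levels were 78.1, 120 and 86.2 CPM against 6.55, 30.8 and 22.0 CPM, so that the highest mutant library was far below the lowest control, and mutant replicate 1 was lowest of all. The fitted level was 4.79-fold higher in TL controls than in panx1a-/- larvae (log2 fold change -2.26 ± 0.50 SE, adjusted p = 0.0325, edgeR quasi-likelihood test). In each genotype, the order of the 3 libraries by s100t was that by the summed epidermis markers, and this relation was not tested.

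The opposite changes of otofa and s100t were found inside the same libraries. The ratio of otofa to s100t reads was 0.331, 0.179 and 0.226 in TL controls and 6.27, 1.08 and 3.29 in panx1a-/- larvae. Every mutant library was above every control. This follows from the separation of the 2 genes in opposite directions and is not a further result.

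**Figure D2:**
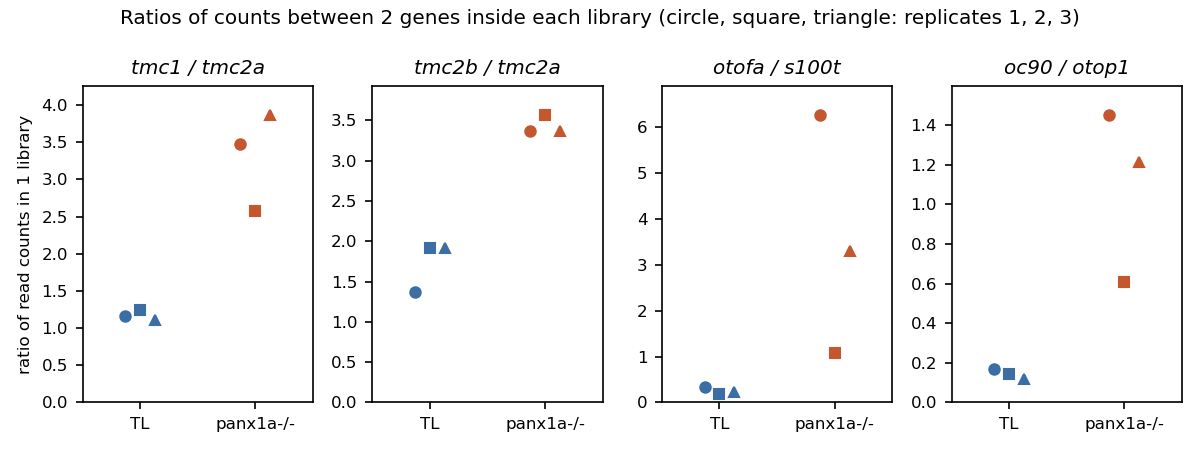
Ratios of read counts between genes within each library (linear axes from 0) for 3 TL control libraries (blue) and 3 panx1a-/- libraries (orange), with circle, square and triangle for replicates 1, 2 and 3. In each panel the mutant libraries lie above the controls, from 2.58 to 3.87 against 1.12 to 1.24 for tmc1 over tmc2a. For tmc1 over tmc2a, otofa over s100t and oc90 over otop1 this follows from the levels of the single genes.

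Among the otolith genes, otop1 encodes otopetrin, a proton channel needed for otoliths to form. Its levels were 7.87, 7.56 and 6.87 CPM in TL replicates 1, 2 and 3 and 1.80, 4.73 and 2.92 CPM in panx1a-/- replicates 1, 2 and 3. The controls were tightly grouped, and all mutant libraries were below them. Means were 7.43 ± 0.51 and 3.15 ± 1.48 CPM (SD over 3 libraries), and the fitted level was 2.35-fold higher in TL controls (log2 fold change -1.23 ± 0.34 SE, adjusted p = 0.041, edgeR quasi-likelihood test). Its call was lost when libraries were scaled by their size alone (log2 fold change -1.01, adjusted p = 0.0742, edgeR quasi-likelihood test).

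oc90 encodes otoconin 90, a matrix protein of the otolith. It was rare, with 24, 18 and 16 reads in TL controls and 45, 54 and 51 reads in panx1a-/- larvae, and every library stood above the count of 3. Levels rose from 1.08 ± 0.24 to 3.01 ± 0.48 CPM (SD over 3 libraries), a fitted 2.78-fold increase (log2 fold change 1.48 ± 0.30 SE, adjusted p = 0.0286, edgeR quasi-likelihood test). The ratio of oc90 to otop1 reads was 0.167, 0.144 and 0.120 in TL controls and 1.45, 0.607 and 1.21 in panx1a-/- larvae. That the genotypes did not overlap in this ratio follows from the separation of oc90 and otop1 in opposite directions.

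Hair cell and otolith members were then compared as sets. Of the 6 hair cell members, 2 were called higher and 1 lower, and their log2 fold changes had a median of -0.12. Of the 2 otolith members, 1 was called in each direction, with a median of 0.12. The median over all tested genes was -0.06. Summed levels were 126 to 171 CPM in TL controls and 87.6 to 141 CPM in panx1a-/- larvae for the hair cell members, and 7.69 to 9.18 against 4.41 to 7.60 CPM for the otolith members. Most of the hair cell sum in TL controls came from s100t, which fell, while otofa and tmc1 rose. Most of the otolith sum in TL controls came from otop1, and oc90 moved the other way. With so few members in each set, the difference between the sets was not tested.

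Defining hair cell genes that were not chosen as members were also read out. In whole larvae, their reads cannot be assigned to hair cells alone. The transcription factors pou4f3 and atoh1a, the bundle myosin myo6b and the lower tip link cadherin pcdh15a were measured in all 6 libraries. pou4f3, which hair cells need to survive, was present at 5.41, 4.29 and 6.97 CPM in TL controls and at 5.80, 2.92 and 3.75 CPM in panx1a-/- larvae (log2 fold change -0.42 ± 0.31 SE, adjusted p = 0.320, edgeR quasi-likelihood test). The log2 fold changes of atoh1a, myo6b and pcdh15a were -0.31 ± 0.24, -0.37 ± 0.32 and -0.34 ± 0.23 (SE), with adjusted p-values of 0.327, 0.396 and 0.278 (edgeR quasi-likelihood test). None of these 4 passed the test, and the genotypes overlapped in all of them. slc17a8, a further defining hair cell gene, was called lower, as given above (log2 fold change -1.48 ± 0.37 SE, adjusted p = 0.0352, edgeR quasi-likelihood test). Its level was lower in every panx1a-/- library than in any TL library. The defining genes thus did not all stay uncalled.

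Member reads were divided by the summed reads of pou4f3, pcdh15a and myo6b in the same library. This ratio was chosen after the values were seen, and the sum left out atoh1a and the called slc17a8. On this scale, otofa, tmc1 and oc90 stood higher and s100t lower in every panx1a-/- library than in any TL library. This is not a further result for any of these genes. The read counts of otofa, tmc1 and oc90 were higher in every panx1a-/- library, and the summed reads were lower there than in any TL library. s100t had at most 579 reads in panx1a-/- larvae and at least 1429 in TL controls. As a ratio, this gap was larger than the whole spread of the summed reads. Differences of the mean log2 ratios were 1.43 for otofa, 1.96 for tmc1, 1.87 for oc90 and -2.14 for s100t. otop1 overlapped on this scale, with a difference of -0.98, as did tmc2a with 0.48, cdh23 with 0.10 and myo7aa with -0.08.

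Of 61 other hair cell genes on a wider list, 34 had a row in the count tables and 31 were tested. 6 were called lower and 6 were called higher (19.4% each), against 11.8% lower and 9.88% higher over all genes tested. The median log2 fold change was -0.31. Among the genes that fell, lhfpl5b, a subunit of the transduction complex in zebrafish hair cells, had 17, 27 and 25 reads in TL controls and 5, 6 and 5 reads in panx1a-/- larvae (log2 fold change -1.99 ± 0.39 SE, adjusted p = 0.0279, edgeR quasi-likelihood test). With so few reads the size of this change is poorly set, and lhfpl5b did not pass a filter of at least 10 counts in every library. It passed the default filter only through its TL reads. gipc3, an adaptor protein linked to deafness in mouse and human, fell from 3.04 ± 0.418 to 0.777 ± 0.145 CPM (adjusted p = 0.0255, edgeR quasi-likelihood test). pvalb8, a parvalbumin calcium buffer, fell from 208 ± 38.0 to 57.8 ± 31.5 CPM (adjusted p = 0.0344, edgeR quasi-likelihood test). s100s, a relative of s100t, was present at 15.5, 17.8 and 11.9 CPM in TL controls and at 1.91, 5.63 and 5.70 CPM in panx1a-/- larvae (adjusted p = 0.0317, edgeR quasi-likelihood test). Other genes of this list for calcium-binding proteins, cabp2a and calm1a, were called higher. As with s100t, the panx1a-/- library with the lowest epidermis markers, replicate 1, had the lowest s100s and pvalb8. By CPM, lhfpl5b was lowest there as well, while gipc3 was highest there among the panx1a-/- libraries. In TL controls, the order by s100s and by pvalb8 was not that by the epidermis markers. These relations were not tested.

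**Figure D3:**
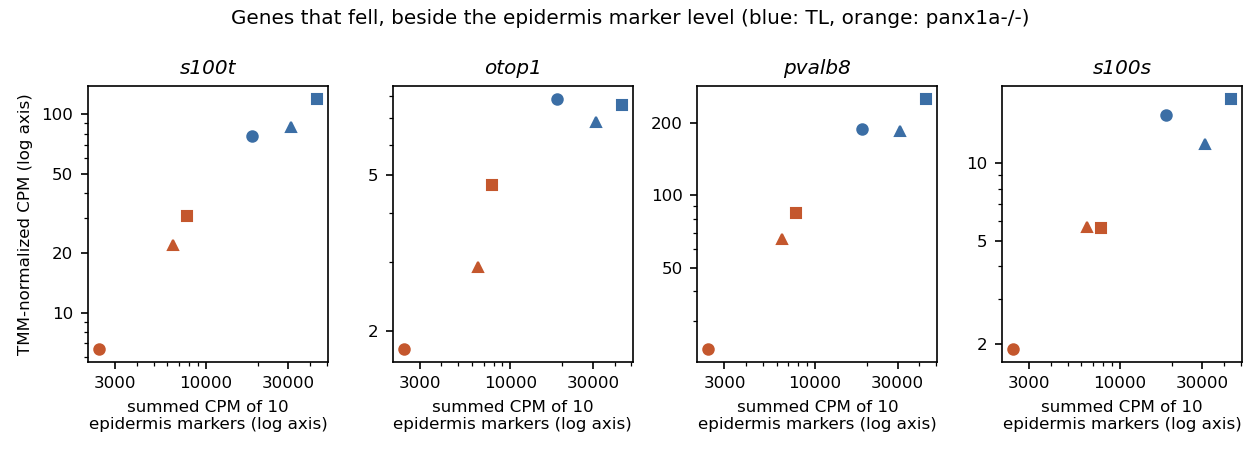
Level of s100t, otop1, pvalb8 and s100s (TMM-normalized CPM, log axis) against the summed CPM of 10 epidermis markers (log axis) in 3 TL control libraries (blue) and 3 panx1a-/- libraries (orange), with circle, square and triangle for replicates 1, 2 and 3. The genes shown were picked from those called lower. Both measures are lower in the panx1a-/- libraries, and replicate 1 of panx1a-/- is lowest in each panel. Of called genes not shown, lhfpl5b was also lowest in that library, while gipc3 was highest there among the panx1a-/- libraries. Within the TL controls, otop1, pvalb8 and s100s do not follow the order of the epidermis markers.

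Among the genes that rose, cabp2a had the largest change. myo3a, a myosin of stereocilia tips that is also found in photoreceptors, had 696, 223 and 254 reads in TL controls and 1427, 921 and 963 reads in panx1a-/- larvae, and rose (log2 fold change 1.62 ± 0.44 SE, adjusted p = 0.0422, edgeR quasi-likelihood test). espn, an actin-bundling protein of stereocilia, rose from 4.63 ± 0.312 to 9.93 ± 3.97 CPM (adjusted p = 0.0419, edgeR quasi-likelihood test). The call of espn was lost with limma-voom (adjusted p = 0.0543), and the covariate fit gave log2 fold changes of 0.19 for myo3a and 0.29 for espn. Several genes of this list are also expressed outside hair cells, and calmodulin and potassium channel genes among the calls are widespread.

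The wider list of otolith and ear matrix genes leaned downward. Of 28 genes, 21 had a row and 17 were tested, of which 8 were called lower (47.1%) and 2 higher (11.8%). The shares over all genes tested were 11.8% lower and 9.88% higher, so the higher calls were near the share over all genes. The median of the log2 fold changes of the list was -0.61. The genes that fell are known from other tissues as well. sparc, a calcium-binding matrix protein of otoliths and bone, fell from 603 ± 180 to 195 ± 50.9 CPM, and col2a1a, a cartilage collagen, fell from 54.4 ± 26.3 to 14.7 ± 2.64 CPM (SD over 3 libraries; adjusted p = 0.0279 and 0.0308, edgeR quasi-likelihood test). atp1a1a.2, a sodium pump subunit that is also a gene of skin ionocytes, fell from 220 ± 152 to 24.7 ± 18.0 CPM, with an adjusted p of 0.0353 (edgeR quasi-likelihood test). With the share of reads outside gene features as a covariate, the log2 fold changes of col2a1a and atp1a1a.2 went from -1.89 to -0.0051 and from -3.15 to -0.49. In that fit the share and genotype cannot be told apart. coch, an extracellular matrix protein of the ear, had 63, 111 and 94 reads in TL controls and 41, 29 and 30 reads in panx1a-/- larvae (log2 fold change -1.32 ± 0.32 SE, adjusted p = 0.0345, edgeR quasi-likelihood test).

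otol1a, which encodes the otolith collagen otolin, moved the other way. It had 8, 4 and 2 reads in TL controls and 30, 22 and 26 reads in panx1a-/- larvae (log2 fold change 2.56 ± 0.49 SE, adjusted p = 0.0279, edgeR quasi-likelihood test). The control replicate with 2 reads was below the count of 3, and the size of this change is therefore poorly set. otol1a passed the filter on low counts only through its panx1a-/- reads. It did not pass a filter of at least 10 counts in every library. The other gene that rose was atp2b1a, a plasma membrane calcium pump (115 ± 28.9 to 255 ± 75.1 CPM, adjusted p = 0.0345, edgeR quasi-likelihood test). Its log2 fold change was 1.15, and 0.12 in the covariate fit.

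Other otolith matrix genes did not pass the test. stm, which encodes starmaker, a phosphoprotein that controls crystal growth, was present at 154, 164 and 139 CPM in TL controls and at 114, 199 and 120 CPM in panx1a-/- larvae. The genotypes overlapped, and the log2 fold change was -0.08 ± 0.25 (SE; adjusted p = 0.825, edgeR quasi-likelihood test). otomp, otolith matrix protein, and tectb, a tectorin, had log2 fold changes of -0.81 ± 0.52 and -0.61 ± 0.39 (SE; adjusted p = 0.248 and 0.254, edgeR quasi-likelihood test). Of the otolith matrix genes named here, oc90 thus rose, sparc fell, and stm, otomp and tectb were not called. otol1a was called higher, with the limit on its filter given above. otol1b, on the same list, had 7, 3 and 6 reads in TL controls and 2, 0 and 0 reads in panx1a-/- larvae. It did not pass the filter on low counts and was not tested.

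**Figure D4:**
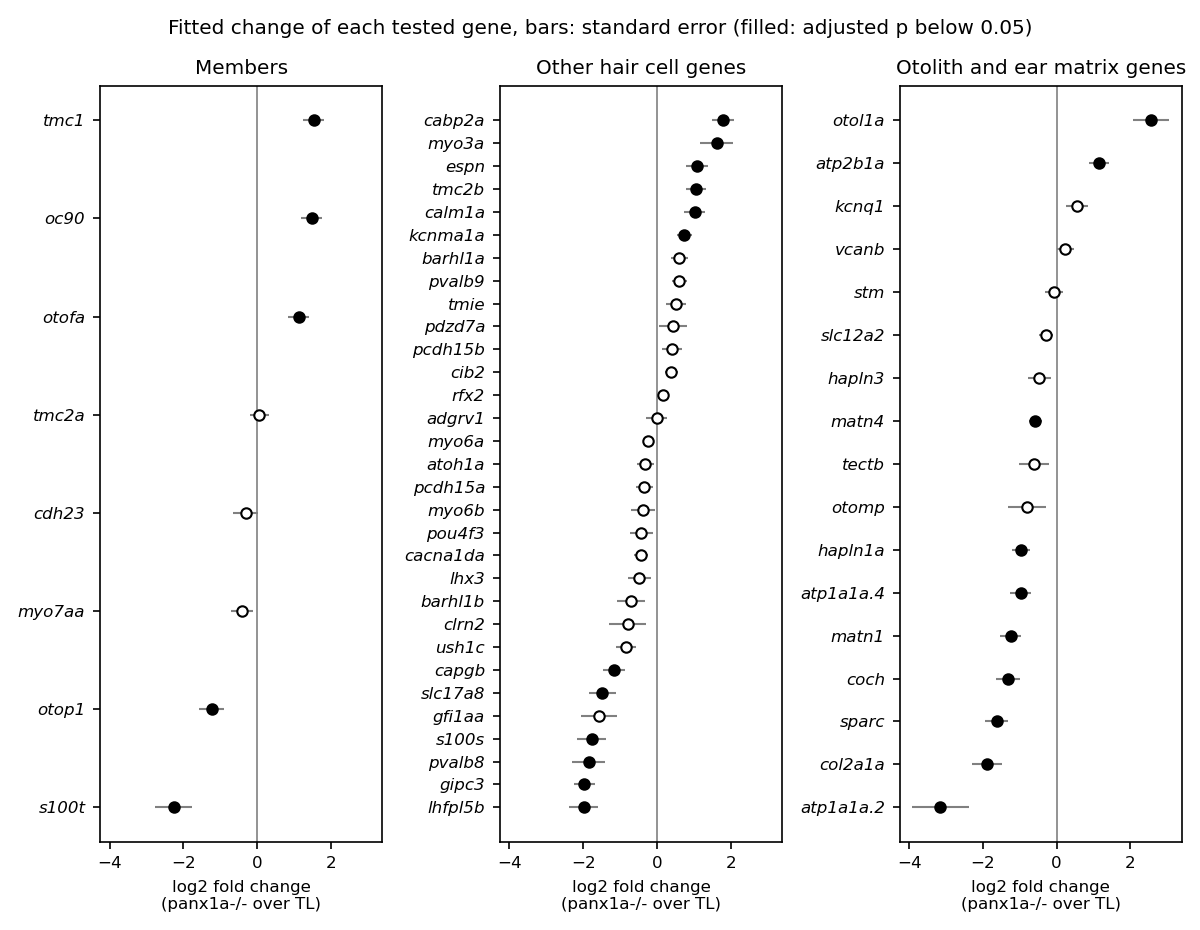
Fitted log2 fold change (panx1a-/- over TL control) with its standard error for the 8 measured members, 31 other hair cell genes and 17 other otolith and ear matrix genes, ordered by size. Filled points have an adjusted p below 0.05, and each panel holds filled points on both sides of 0.

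Genes of the ear and lateral line placodes and of support cells, from which hair cells are formed, were read out as a last list. Of 60 genes, 54 were measured and tested, of which 10 were called lower (18.5%) and 6 higher (11.1%). Beside the 11.8% lower and 9.88% higher over all genes tested, the higher calls were near that share. The median of the log2 fold changes of the list was -0.17. six4b, a placodal transcription factor, fell from 10.2 ± 2.75 to 4.11 ± 0.795 CPM (adjusted p = 0.0298, edgeR quasi-likelihood test). The Notch receptor gene notch3 fell from 19.5 ± 5.34 to 8.07 ± 2.38 CPM (adjusted p = 0.0312, edgeR quasi-likelihood test, and 0.0574 with library size only). sfrp1a, a secreted Wnt antagonist, fell from 2.03 ± 0.815 to 0.559 ± 0.233 CPM (SD over 3 libraries; adjusted p = 0.0368, edgeR quasi-likelihood test). It had only 5, 13 and 10 reads in the panx1a-/- replicates. The largest decrease of this list was in krt4, a keratin that is also one of the epidermis markers, with a log2 fold change of -2.44 ± 0.48 (SE; adjusted p = 0.0289, edgeR quasi-likelihood test).

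Among the genes of this list that were called higher, those with the largest increases, gbx2, tbx2a, otx1 and nr2f1a, are transcription factors that are also expressed in the brain or retina. Their log2 fold changes were 1.16 ± 0.32, 1.00 ± 0.28, 0.90 ± 0.26 and 0.88 ± 0.26 (SE; adjusted p = 0.0419, 0.0419, 0.0448 and 0.0485, edgeR quasi-likelihood test). With library size only, none of the 4 was called, with adjusted p-values between 0.0521 and 0.0636 (edgeR quasi-likelihood test). With the share of reads outside gene features as a covariate, the log2 fold change was -0.11 for gbx2, 0.036 for tbx2a, -0.016 for otx1 and -0.040 for nr2f1a. That fit cannot tell the share from genotype. In the same libraries, 5 of 10 neuron markers were called higher and none lower.

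The calls of the 5 members depended on single libraries, while their directions did not in these fits. When each library was left out in turn, the log2 fold change ranged from 1.30 to 1.83 for tmc1, from 1.32 to 1.65 for oc90, from 0.74 to 1.35 for otofa, from -2.73 to -1.84 for s100t and from -1.66 to -0.94 for otop1. The calls of otofa, s100t and oc90 held without TL replicate 1 and without panx1a-/- replicate 2, that of tmc1 also without TL replicate 2 (adjusted p = 0.0464, edgeR quasi-likelihood test), and that of otop1 only without panx1a-/- replicate 2. None of the 5 was called without TL replicate 3 or without panx1a-/- replicates 1 or 3, where adjusted p-values lay between 0.0717 and 0.140 (edgeR quasi-likelihood test). The number of calls over all genes fell to 3 without TL replicate 3, to 19 without panx1a-/- replicate 1 and to 4 without panx1a-/- replicate 3, where panx1a had an adjusted p of 0.0649 (edgeR quasi-likelihood test). No gene of the 3 wider lists was called in these 3 fits. With the share of reads outside gene features as a covariate, none of the 5 members was called, and the log2 fold changes were 1.23 for tmc1, 0.85 for oc90, -1.76 for s100t and -1.05 for otop1. The targeted gene panx1a also lost its call there (log2 fold change -2.38, adjusted p = 0.574, edgeR quasi-likelihood test). No gene of the wider lists was called in that fit either, where log2 fold changes were 0.78 for cabp2a, -0.87 for sparc, -0.70 for coch, 1.31 for otol1a, -0.28 for six4b and -0.68 for sfrp1a, while those of s100s and tmc2b were -1.99 and 1.57. This share did not overlap between the genotypes, and the contributions of the share and of genotype cannot be told apart.

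**Figure D5:**
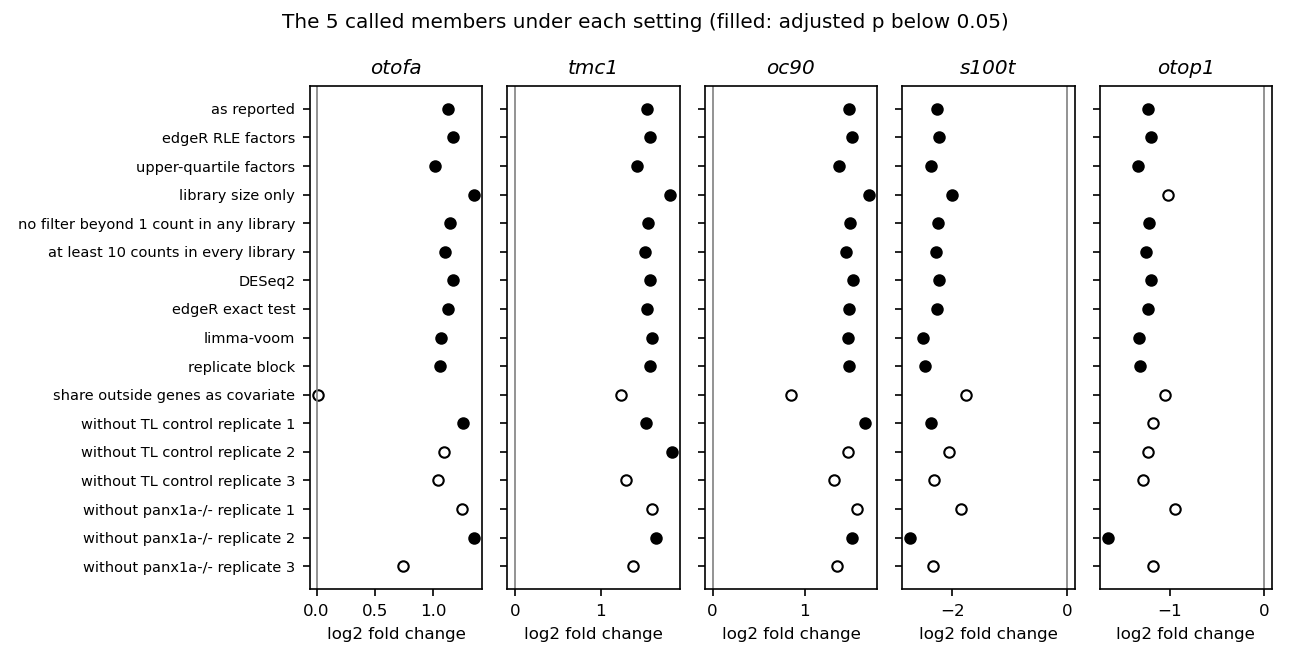
Log2 fold change (panx1a-/- over TL control) of the 5 called members under each way of processing the counts, with filled points where the adjusted p is below 0.05 and a line at 0. otofa reaches 0.01 with the share of reads outside genes as covariate, and the other 4 members keep their direction under all settings shown.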

How the data were processed

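Total RNA from 6 dpf whole larvae was sequenced in paired-end mode after directional library preparation. For each library the authors deposited counts per gene, raw and not normalized, with 15336 genes listed by symbol and 5 rows of unassigned reads, which were left out of library sizes and tests. The submitters' processing notes name bcl2fastq 2.17, FastQC 0.11.2, Trim Galore 0.4.4, TopHat2 2.0.11, HTSeq 0.6.1p2 and the build danRer11. The annotation and the strand setting are not given in the sources used here. A different strand setting or annotation would change which reads count for overlapping genes and how many match no gene feature.

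Counts were analyzed with R 4.3.3 and edgeR 4.0.16. Genes were kept by edgeR's default filter, normalized by TMM and tested for genotype, without further terms, by the quasi-likelihood test (robust setting). Benjamini-Hochberg adjusted p-values were computed over 12797 genes and called below 0.05. The 2 genotypes had 3 libraries each, with 13054759 to 21472044 reads on genes, and no libraries were duplicates. The limit of 3 counts covers counting error only. Alternatives were scaling by RLE, by upper quartiles or by library size only, a looser and a stricter filter, DESeq2 1.42.0, edgeR's exact test, limma-voom (limma 3.58.1), the replicate block, the share of reads matched to no gene feature as a covariate, and leaving out each library. Members and lists were chosen with earlier results of these data known. Named genes are the members, panx1a, the called genes of each wider list (with more than 8 calls, the 4 lower and 4 higher with the largest change) and 8 defining genes. calm1a and otol1b are named in addition.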

Additional observations from a re-analysis of the deposited data

Results flagged for a closer look

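The reads that were matched to no gene feature, which enter no comparison of genes, took a larger share in every panx1a-/- library than in any TL control. The lowest panx1a-/- library had 48.4% of its uniquely aligned reads outside gene features, against 42.9% in the highest TL control.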

How the results depend on the processing

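With library size only, 1 member was called lower in place of 2, the hair cell median log2 fold change turned from -0.12 to 0.11, 5 otolith and matrix genes were called lower in place of 8, 3 placode and support genes lower in place of 10 and 1 higher in place of 6, 1633 of all genes were called in place of 2770, and stm turned to 0.15. Upper-quartile factors gave 3 placode genes called higher and tmc2a at -0.040, DESeq2 12 and edgeR's exact test 10 placode genes higher, and a minimum of 10 counts in every library 1 otolith gene higher in place of 2. Higher calls made up 45.6% of all calls with TMM, 31.2% by upper quartiles and 62.8% by library size alone, with a median log2 fold change over all genes of -0.06, -0.17 and 0.17. With the share of reads matched to no gene feature as a covariate, 1 gene was called (581 at an unadjusted p below 0.05), 0 members and 0 genes of each list were called in either direction, and the log2 fold change was -2.38 for panx1a, 0.15 for myo6b, 0.28 for stm, -0.11 for gbx2, -0.016 for otx1 and -0.040 for nr2f1a. Leaving out 1 library at a time gave -2.90 to -2.62 for panx1a, -0.15 to 0.31 for tmc2a, -0.38 to 0.070 for stm, 0 to 2 members called lower and 0 to 3 higher, 0 to 8 and 0 to 9 other hair cell genes lower and higher, 0 to 7 and 0 to 2 otolith genes, 0 to 18 and 0 to 16 placode genes, and 3 to 4708 genes in all (4708 without TL replicate 1, 142 without TL replicate 2). The causes were not tested.

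Deviations of same-numbered libraries correlated at 0.08 to 0.30 (mean 0.17). Those of differently numbered libraries correlated at -0.21 to 0.14 (mean -0.08). With only 3 same-numbered pairs, these values cannot decide whether the replicate numbers pair the samples. The replicate block gave -2.72 for panx1a, 1.06 for otofa, 1.57 for tmc1, -2.47 for s100t, -1.31 for otop1 and 1.48 for oc90, kept these calls, and gave 3882 calls over all genes. Depth limits genes such as cdh23, lhfpl5b, slc17a8 and otol1a, which had under 40 reads in each library.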
